A study of Arabidopsis thaliana with 4 samples.

Results

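Polycomb genes of the Arabidopsis embryo and endosperm were followed in globular-stage embryos of the serrate-1 mutant (se-1) and of wild type. The members are 10 genes taken by their identifiers from count tables of 27880 rows: FIS2, EMF2, VRN2, MEA, CLF, SWN, FIE, MSI1, LHP1 and PKL. Of these, 9 have a row of their own, and PKL shares a row with the microRNA gene MIR862. All 10 were among the 18714 rows with enough counts to be tested. MEA met the minimum only through its wild-type level, while the other members met it in both genotypes.

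Both genotypes were in the Col (Columbia) background, and embryos were collected at the stage of 32 to 64 cells from plants grown in soil at 22 °C with 16 h of light after at least 4 days of darkness at 4 °C. The groups were 2 libraries of se-1 embryos and 2 libraries of wild-type embryos, described by the submitters as biological replicates. SERRATE (SE), a zinc-finger partner of the Dicer enzyme DCL1, is needed for microRNA processing and affects splicing. The se-1 allele is hypomorphic, so some SE function is left in the mutant. The SE transcript stood at 69.4 and 71.0 CPM (TMM-normalised counts scaled to a common library total) in se-1, against 96.6 and 98.6 CPM in wild type. It was lower in se-1 (adjusted p = 2.92e-05, edgeR) in a fit without correction for transcript length. How many embryos went into a library is not given in the sources used here. Total counts ran from 18580516 to 20882004 per library.

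Polycomb repressive complex 2 (PRC2) methylates histone H3 at lysine 27, a mark that keeps developmental genes silent. Each plant PRC2 holds a catalytic subunit related to Drosophila E(z), a VEFS-box subunit related to Su(z)12, the WD40 protein FIE and the WD40 protein MSI1. In the seed, the FIS complex with MEA and FIS2 acts in the central cell and endosperm, where the maternal copies of MEA and FIS2 are the active ones and its loss leads to endosperm overgrowth. Complexes with CLF or SWN and with EMF2 or VRN2 act in the plant body, LHP1 binds the histone mark, and the chromatin remodeler PKL promotes the same mark and represses embryonic traits in seedlings.

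In se-1 embryos FIS2 fell 5.93-fold, the largest change among the members, and the catalytic subunit genes CLF and SWN fell 1.98-fold and 1.46-fold. The core subunit genes FIE and MSI1, the reader gene LHP1 and the joined PKL row also fell, by factors of 1.20 to 1.69. VRN2 was the only member that rose, 1.20-fold, while EMF2 and MEA did not pass the test. Thus 7 of 10 members were lower and 1 was higher (edgeR quasi-likelihood test, Benjamini-Hochberg adjusted p below 0.05). Among all tested rows 36.0% were lower and 36.2% higher, 72.3% in all, so the 8 members called are a share close to the background. In all 10 members the CPM values of the genotypes did not overlap, with se-1 lower in 8 and higher in EMF2 and VRN2. Such separation was found in 85.5% of all tested rows, with se-1 lower in 42.8% and higher in 42.7%. The median log2 fold change was -0.51 over the members and 0.00 over all rows tested.

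**Figure D1:**
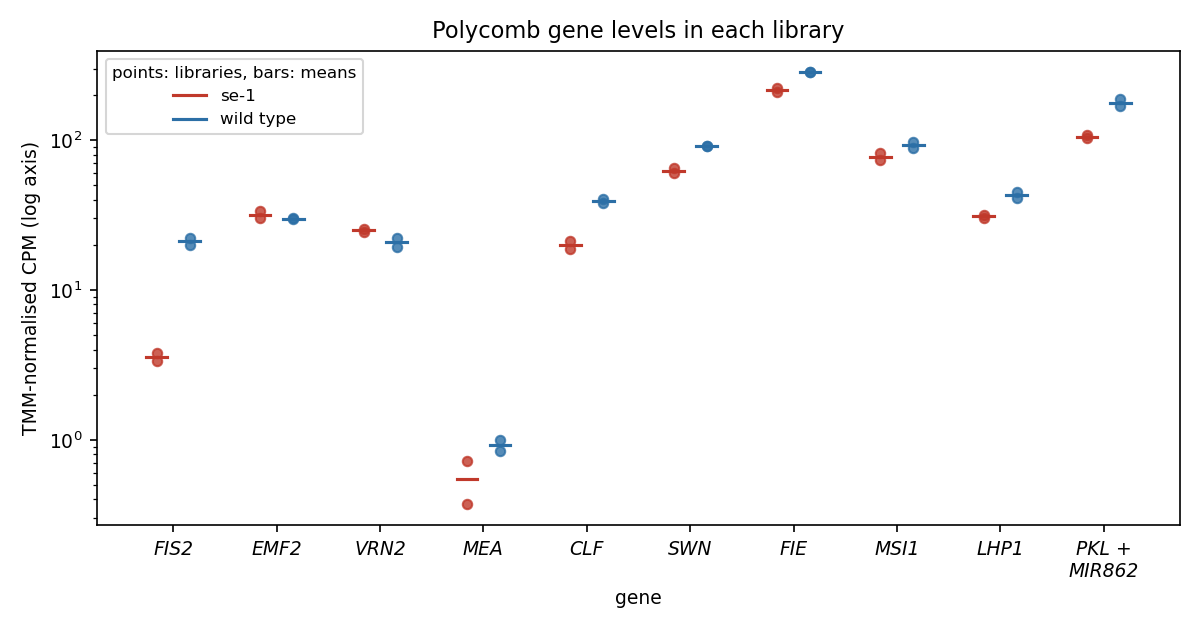
Level of each of the 10 Polycomb genes in every library, as TMM-normalised CPM on a log axis, with se-1 left of wild type and bars at the means of 2 libraries. FIS2 shows the widest gap, at 3.35 to 3.80 CPM in se-1 against 20.0 to 22.4 CPM in wild type, and MEA lies lowest in both genotypes.

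Transcript length moves with these fold changes. Long transcripts were lower in se-1 across the transcriptome: the median log2 fold change was 0.06 over 4651 protein-coding genes of 1500 to 2000 nt, -0.59 over 1426 genes of 3000 to 4000 nt and -0.82 over 484 genes of 4000 to 5000 nt. CLF (3456 nt), SWN (3354 nt) and PKL (4524 nt) are the longest members. A fit with a spline of transcript length as an offset called 5 members lower and 1 higher, where 34.5% of all rows were lower and 32.3% higher, 66.8% in all. In that fit the median log2 fold change was -0.39 over the members and -0.02 over all rows. FIS2, CLF, FIE, MSI1 and LHP1 were lower in both fits. SWN and PKL were not called after the correction, VRN2 was not called either, and EMF2 became the member called higher. With a GC term added, VRN2 was called higher beside EMF2 and the same 5 members were lower, against 32.2% higher and 34.6% lower among all rows. The part of the length trend in these results was not tested.

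**Figure D2:**
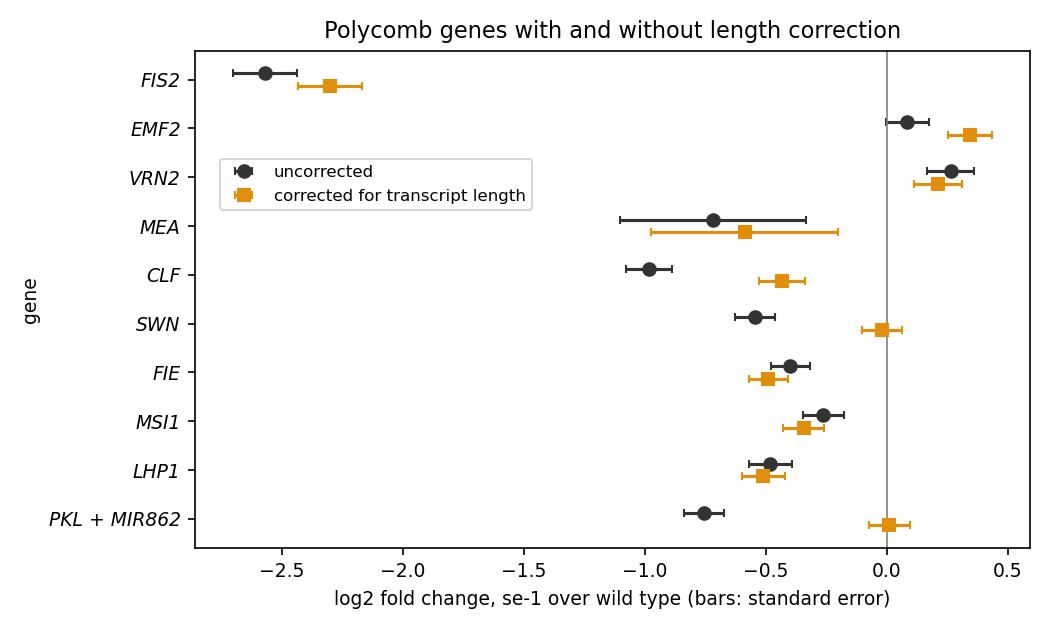
Log2 fold change of each Polycomb gene, se-1 over wild type, with its standard error, without correction (circles) and with correction for transcript length (squares). FIS2 stays at -2.57 and -2.30, whereas SWN moves to -0.02 and the PKL row to 0.01.

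FIS2 (AT2G35670, chr2:14992565-14996756 in the RefSeq TAIR10.1 annotation, plus strand) encodes the VEFS-box subunit of the seed complex. It had 71 and 70 counts in the se-1 libraries, against 425 and 382 counts in the wild-type libraries, or 3.80 and 3.35 CPM in se-1 against 22.4 and 20.0 CPM in wild type. Both se-1 libraries lay far below both wild-type libraries. The log2 fold change was -2.57 (SE 0.13, adjusted p = 5.94e-12, edgeR), and only 230 of the 18714 tested rows had a lower one. Scaled to the total counts of each genotype, the ratio of summed counts (141 in se-1, 807 in wild type) was 0.169, with an exact 95% interval of 0.141 to 0.203 that covers counting error only. After length correction the log2 fold change was -2.30, a 4.92-fold lower level, and with a GC term added it was -2.23. FIS2 overlaps AT2G35680 by 44 bases on the opposite strand, and without a stated strand setting reads from there cannot be told apart. AT2G35680 stood at 168 and 160 CPM in se-1 and 127 and 151 CPM in wild type, and was higher in se-1 (log2 fold change 0.24, adjusted p = 0.0217, edgeR).

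EMF2 (AT5G51230, chr5:20823644-20829644) is the VEFS-box gene that represses flowering in vegetative plants. It stood at 33.4 and 30.2 CPM in se-1, against 30.1 and 29.7 CPM in wild type, and the libraries of the genotypes nearly touched. Its log2 fold change was 0.09 (SE 0.090, adjusted p = 0.399), or 0.35 (adjusted p = 0.0021, edgeR) after length correction. VRN2 (AT4G16845, chr4:9476069-9479878) is the VEFS-box gene needed for the memory of winter cold. It stood at 25.5 and 24.5 CPM in se-1 and 19.5 and 22.1 CPM in wild type, a log2 fold change of 0.27 (SE 0.097, adjusted p = 0.0207, edgeR). The VRN2 call was lost without se-1 replicate 1 (0.24, adjusted p = 0.0914), without wild-type replicate 1 (0.17, adjusted p = 0.234), after length correction (0.21, adjusted p = 0.0614) and with DESeq2 (0.26, adjusted p = 0.0990).

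The make-up of the VEFS-box family was compared within each library, where scaling between libraries plays no part. Of the family's summed counts per kb, FIS2 held 5.20% and 4.94% in se-1, against 28.0% and 24.7% in wild type. EMF2 held 46.1% and 44.9% in se-1 and 38.0% and 37.2% in wild type, and VRN2 held 48.7% and 50.2% in se-1 and 33.9% and 38.1% in wild type. The genotypes did not overlap for any of these genes, but 2 libraries against 2 cannot give an exact two-sided permutation p below 0.333, which is the value of each. The family sum was 26.9 ± 1.37 CPM per kb in se-1 and 30.6 ± 0.238 CPM per kb in wild type (SD, n = 2 each), 0.877 of the wild-type level. Neither the shares nor this sum were corrected for the length trend, and VRN2 (1884 nt) is shorter than FIS2 (2622 nt) and EMF2 (2599 nt). With that correction FIS2 was at -2.30, EMF2 at 0.35 and VRN2 at 0.21 on the log2 scale. FIS2 is the longest of these proteins, with 755 residues against 631 for EMF2 and 440 for VRN2. In pairwise protein alignments FIS2 was identical to EMF2 at 27.7% of aligned residues and to VRN2 at 44.2%, while EMF2 and VRN2 were identical at 52.9%.

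**Figure D3:**
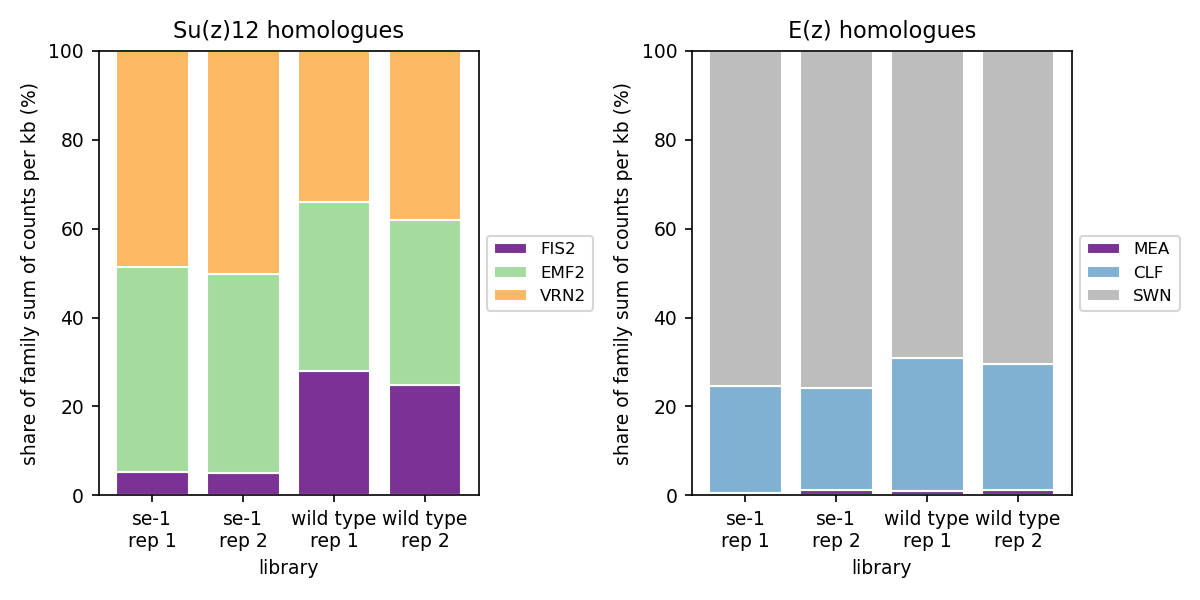
Share of each gene in its family's summed counts per kb of transcript, in percent, for each library, with se-1 left of wild type. FIS2 makes up about 5% of the VEFS-box family in both se-1 libraries and 24.7% to 28.0% in wild type, while MEA stays near 1% of the E(z) family in both genotypes.

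MEA (AT1G02580, chr1:544733-549202) encodes the catalytic subunit of the seed complex and is imprinted in the endosperm. It had 7 and 15 counts in se-1, against 16 and 19 counts in wild type, or 0.374 and 0.718 CPM against 0.842 and 0.993 CPM. Both se-1 libraries were below both wild-type libraries, though by a few reads. The log2 fold change of -0.72 had an SE of 0.38 and did not pass (adjusted p = 0.101, edgeR). The ratio of summed counts (22 in se-1, 35 in wild type), scaled in the same way, was 0.609 with an exact 95% interval of 0.341 to 1.07, so a difference was not detectable at this depth.

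CLF (AT2G23380, chr2:9955092-9960386) is the catalytic subunit that keeps floral genes silent in leaves. It stood at 21.2 and 18.6 CPM in se-1, against 40.5 and 38.1 CPM in wild type, with no overlap. Its log2 fold change was -0.98 (SE 0.095, adjusted p = 3.08e-08, edgeR), or -0.43 after length correction (adjusted p = 4.6e-04). SWN (AT4G02020, chr4:886580-891987), which acts partly in place of CLF, stood at 64.7 and 60.3 CPM in se-1 and 90.7 and 91.4 CPM in wild type. Its log2 fold change was -0.54 (SE 0.081, adjusted p = 8.09e-06, edgeR), but -0.02 (adjusted p = 0.850) after length correction. CLF overlaps neighbours at both ends on the opposite strand by 58 and 22 bases. Of these AT2G23370 was higher in se-1 (log2 fold change 0.91) and AT2G23390 lower (-0.90).

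Within the E(z) family SWN prevailed in every library, with 75.4% and 75.9% of the counts per kb in se-1 and 69.1% and 70.4% in wild type. CLF held 24.0% and 22.8% in se-1, against 30.0% and 28.5% in wild type, so the CLF share was lower in se-1 by more than the spread between libraries (exact permutation p = 0.333, the smallest possible). CLF and SWN have similar transcript lengths. Of aligned residues, CLF and SWN share 51.1%, MEA and SWN 50.7% and MEA and CLF 42.4%. MEA held 0.625% and 1.30% in se-1 and 0.919% and 1.10% in wild type, values that overlap. The family sum was 24.6 ± 1.35 CPM per kb in se-1 and 38.9 ± 0.290 CPM per kb in wild type (SD, n = 2 each), 0.633 of the wild-type level. This sum was not corrected for the length trend. With that correction SWN, which makes up most of it, was at -0.02 and CLF at -0.43 on the log2 scale.

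The subunits common to all PRC2 forms had the highest levels per kb of transcript among the members, while in CPM the PKL row exceeded MSI1. FIE (AT3G20740, chr3:7248809-7252452), the homologue of Drosophila ESC, stood at 221 and 209 CPM in se-1, against 283 and 283 CPM in wild type. Its log2 fold change was -0.40 (SE 0.080, adjusted p = 2.0e-04, edgeR), or -0.49 after length correction. FIE overlaps AT3G04025 by 210 bases and AT3G20730 by 70 bases, both on the opposite strand. MSI1 (AT5G58230, chr5:23556012-23558245), a histone-binding WD40 protein that also belongs to the chromatin assembly factor CAF-1, stood at 73.2 and 81.4 CPM in se-1 and 96.4 and 89.1 CPM in wild type. Its log2 fold change was -0.26 (SE 0.085, adjusted p = 0.0098, edgeR), or -0.34 after length correction. The libraries of MSI1 did not overlap, but the call was lost without se-1 replicate 1 (-0.18, adjusted p = 0.104) or without wild-type replicate 1 (-0.21, adjusted p = 0.108). MSI1 overlaps FHIT on the opposite strand by 132 bases, and FHIT did not pass the test (log2 fold change 0.10, adjusted p = 0.347, edgeR).

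LHP1 (AT5G17690, chr5:5827142-5829763), the chromodomain protein that binds methylated lysine 27, stood at 31.6 and 30.3 CPM in se-1, against 41.1 and 45.3 CPM in wild type. It fell 1.40-fold (log2 fold change -0.48, SE 0.088, adjusted p = 8.5e-05, edgeR), and the change was -0.51 after length correction. LHP1 overlaps AT5G17680 by 12 bases on the opposite strand.

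The row that joins PKL (AT2G25170, chr2:10713807-10724106) with MIR862 (AT2G25171) held 108 and 103 CPM in se-1, against 168 and 187 CPM in wild type. The log2 fold change was -0.75 (SE 0.083, adjusted p = 1.7e-07, edgeR), or 0.01 (adjusted p = 0.917) after correction with the length of PKL. On the opposite strand PKL overlaps AT2G08120 by 522 bases and AT2G25169 by 208 bases. MIR862 lies in intron 15 of PKL on the same strand, at chr2:10718096-10718198 of the RefSeq TAIR10.1 assembly, and overlaps no exon of the 4 annotated PKL transcripts. Reads of the PKL message and of the MIR862 precursor therefore share 1 value in the tables, and how much of it comes from either was not tested. The hairpin is shown because its RNA is a substrate of the pathway that SE serves. In the first line capitals mark the mature microRNAs, and in the others the seed (bases 2 to 8), all written as DNA, 5′ to 3′, from the plus strand.
MIR862 hairpin: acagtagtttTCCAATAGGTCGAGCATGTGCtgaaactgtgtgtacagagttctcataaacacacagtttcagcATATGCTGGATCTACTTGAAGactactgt
miR862-5p: tCCAATAGgtcgagcatgtgc
miR862-3p: aTATGCTGgatctacttgaag

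Ordered by level per kb of transcript, the sequence in se-1 was FIE (137 CPM per kb), MSI1 (47.5), PKL (23.3), SWN (18.6), LHP1 (15.6), VRN2 (13.3), EMF2 (12.2), CLF (5.77), FIS2 (1.36) and MEA (0.233), with no overlap between neighbours. In wild type it was FIE (181 CPM per kb), MSI1 (57.0), PKL (39.2), SWN (27.1), LHP1 (21.7), EMF2 (11.5), CLF (11.4), VRN2 (11.0), FIS2 (8.07) and MEA (0.392). EMF2 overlapped CLF and CLF overlapped VRN2 in wild type, and no other neighbours in the order did. The RNA was amplified from the poly(A) tail, so reads need not grow with transcript length, and levels per kb of unlike lengths compare only roughly.

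The 5 genes whose pattern over the 4 libraries was nearest to that of FIS2 were AT2G16760, AT1G65810, the chloroplast genes ATCG00340 and ATCG00760, and MYB118. Likeness was the Euclidean distance of log2 CPM centred on each gene's mean, among 13877 genes of at least 5 CPM, and ran from 0.160 for AT2G16760 to 0.256 for ATCG00760. MYB118, which holds back maturation in the endosperm, stood at 43.7 and 43.4 CPM in se-1, against 228 and 216 CPM in wild type. With 4 libraries in 2 groups such a distance mainly ranks genes by their fold change.

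Since FIS2 and MEA are known from the endosperm, markers of other seed tissues were measured in the same libraries. The 19 endosperm markers summed to 256 and 247 CPM in se-1, against 470 and 449 CPM in wild type, 0.547 of the wild-type level. MYB118 made up most of that gap: without it, a split chosen after its value was seen, the sums were 212 and 204 CPM in se-1 against 242 and 233 CPM in wild type (0.875). Of 14 markers tested, 8 were lower and 6 higher, where 72.3% of all rows were called. AGL62 and AGL28 met the minimum count only through se-1, and AGL80 and MYB115 only through wild type. The calls of these markers are therefore partly fixed by the filter. The median log2 fold change over the 14 was -0.44. It was 0.11 over 16 markers without se-1 replicate 2, and 0.17 and 0.16 over 17 markers without wild-type replicate 1 or 2. By contrast the median was -0.32 over 15 markers without se-1 replicate 1. With all libraries it was -0.33 over 19 markers with no filter, and -0.59 over 12 markers with at least 1 CPM in 2 libraries. The fits with a positive median left out a library and also tested more markers, and these 2 changes cannot be told apart. MYB118 fell 5.10-fold, CKX2, a cytokinin oxidase gene, fell 1.78-fold, and PHE1 rose 7.45-fold. Among markers chosen after their values were seen, AGL62, a regulator of endosperm cellularization, had 17 and 23 counts in se-1 against 7 and 10 counts in wild type, IKU2 had no count in se-1 against 4 and 5 counts in wild type, and MYB115 had 3 and 3 counts in se-1 against 37 and 34 counts in wild type. A smaller share of endosperm material and less FIS2 RNA per cell cannot be told apart in bulk embryos, and the part of these markers in the FIS2 result was not tested.

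Of 8 seed coat markers 5 were higher in se-1, 1 was lower and 2 did not pass. Among all rows 36.2% were higher and 36.0% lower, and the share called was close to their 72.3%. With length correction 4 markers were higher, 1 was lower and 3 did not pass, beside 32.3% higher and 34.5% lower among all rows. The 8 markers summed to 189 and 190 CPM in se-1 and 118 and 110 CPM in wild type. TT10, a laccase-like gene of seed coat browning, rose 3.49-fold, BAN rose 1.51-fold and MUM2, a galactosidase gene of mucilage, fell 3.76-fold. The 8 embryo markers were all detected, at sums of 1415 and 1393 CPM in se-1 and 1606 and 1684 CPM in wild type. Of these markers 4 were higher and 3 lower, beside 36.2% and 36.0% of all rows. WOX8, ATML1 and MP, regulators of the suspensor lineage, the protoderm and auxin response, fell by 1.53, 0.82 and 0.77 on the log2 scale, and after length correction only WOX8 of these passed (-1.93). The higher ones, named after their values were seen, were DRN (1.75), WOX2 (1.35), WOX9 (0.50) and PDF1 (0.36), and all but PDF1 were also called higher after length correction.

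Genes listed for imprinting of MEA and FIS2, with the demethylase genes ROS1, DML2 and DML3 among them, were mostly lower before length correction. Of 8 tested genes of this list 6 were lower and 1 was higher. Whether ROS1, DML2 or DML3 act on MEA or FIS2 was not tested. The shares among all rows were 36.0% lower and 36.2% higher. With the correction 3 of these genes were lower, 2 were higher and 3 did not pass, beside 34.5% lower and 32.3% higher among all rows. DME, the DNA glycosylase that activates the maternal copies of MEA and FIS2, stood at 15.0 and 13.1 CPM in se-1, against 37.9 and 34.3 CPM in wild type. It fell 2.57-fold (log2 fold change -1.36, adjusted p = 9.2e-10, edgeR), or by 0.36 on the log2 scale after length correction (adjusted p = 0.0038). MET1, the maintenance DNA methyltransferase, fell by 0.98 on the log2 scale (-0.14 after length correction, adjusted p = 0.151, edgeR). RBR1, the retinoblastoma homologue that represses MET1, fell by 1.04 (-0.39 after correction). The demethylase genes DML2 and ROS1 fell by 1.14 and 0.54, at -0.39 and 0.27 after correction, so ROS1 turned from lower to higher. DDM1, a chromatin remodeler that maintains DNA methylation, rose 1.55-fold, and more after correction (0.96 on the log2 scale). Of the histone chaperone genes SPT16 fell by 0.60 (0.10 after correction, adjusted p = 0.257), and SSRP1 was at -0.04 (adjusted p = 0.637, edgeR). DML3, with 3 to 17 counts per library, was not tested.

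Across 55 tested genes of the wider Polycomb pathway, 27 were lower and 7 higher, with a median log2 fold change of -0.22. After length correction 16 were lower and 13 higher, and the median was -0.02. The lists were PRC1, VEL proteins, relatives of MSI1 and of PKL, recruiters and partners, antagonists, and the imprinting list above. Shares of 36.0% lower and 36.2% higher among all rows stand beside the uncorrected counts, and 34.5% lower and 32.3% higher beside the corrected ones.

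PRC1 in plants pairs RING1 and BMI1 proteins that ubiquitinate histone H2A. Its genes moved little: of 7 genes 1 was lower and none higher, beside 36.0% and 36.2% of all rows. That gene was EMF1, a plant-specific PRC1 component, at 10.2 and 13.4 CPM in se-1 against 20.4 and 21.6 CPM in wild type (log2 fold change -0.83, adjusted p = 4.9e-06, edgeR). It was at -0.09 after length correction (adjusted p = 0.540). RING1B was at -0.18 (adjusted p = 0.113) and AT3G23060 at 0.28 (adjusted p = 0.237).

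Of the 4 VEL genes, whose PHD-finger proteins join PRC2 in vernalization, VRN5 was lower at 75.9 and 74.9 CPM in se-1 against 122 and 119 CPM in wild type (log2 fold change -0.67, adjusted p = 4.1e-07, edgeR; -0.44 after length correction). VEL1 was at -0.08 and VIN3 at 0.12, neither passing, but after length correction VEL1 was called higher (0.25, adjusted p = 0.00951, edgeR). Among the 4 relatives of MSI1, FVE, which acts in flowering time control with histone deacetylases, stood at 375 and 335 CPM in se-1, against 657 and 694 CPM in wild type. FVE fell by 0.93 on the log2 scale (adjusted p = 2.1e-08, edgeR), or by 0.88 after length correction. MSI2 rose 1.20-fold (0.18 after correction, adjusted p = 0.0545), and MSI5 was at -0.19 (adjusted p = 0.0576), or called lower at -0.23 after correction (adjusted p = 0.0251, edgeR).

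Among 16 recruiters and partners 8 were lower and 3 higher, beside 36.0% and 36.2% of all rows. CYP71, a cyclophilin that interacts with LHP1 and chromatin assembly, stood at 67.6 and 68.7 CPM in se-1, against 204 and 198 CPM in wild type. It fell 2.95-fold (log2 fold change -1.56, adjusted p = 6.0e-12, edgeR; -1.38 after length correction). UBP12, a deubiquitinase of the LHP1 network, fell 2.31-fold (-0.52 after correction on the log2 scale). BPC1, a GAGA-binding factor, rose 1.82-fold, with 29.0 and 27.3 CPM in se-1 against 16.1 and 14.9 CPM in wild type.

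Antagonists of Polycomb repression had 9 of 14 genes lower and 2 higher, but 4 lower and 6 higher after length correction. The shares of all rows were 36.0% lower and 36.2% higher without the correction, and 34.5% lower and 32.3% higher with it. JMJ30, a histone demethylase gene of lysine 27, stood at 80.3 and 87.3 CPM in se-1, against 218 and 231 CPM in wild type, and fell 2.68-fold (-1.42, or -1.46 after length correction). SDG2, a trithorax-type methyltransferase gene of lysine 4, fell 2.79-fold (-0.43 after correction), and SYD, a SWI/SNF ATPase gene with a transcript of 11033 nt, fell 2.41-fold (-0.11 after correction, adjusted p = 0.265, edgeR). Of the relatives of PKL, PKR2 was lower (-0.69) and PKR1 was not called (-0.18). After length correction PKR2 was at -0.06 without passing and PKR1 was higher, at 0.88.

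**Figure D4:**
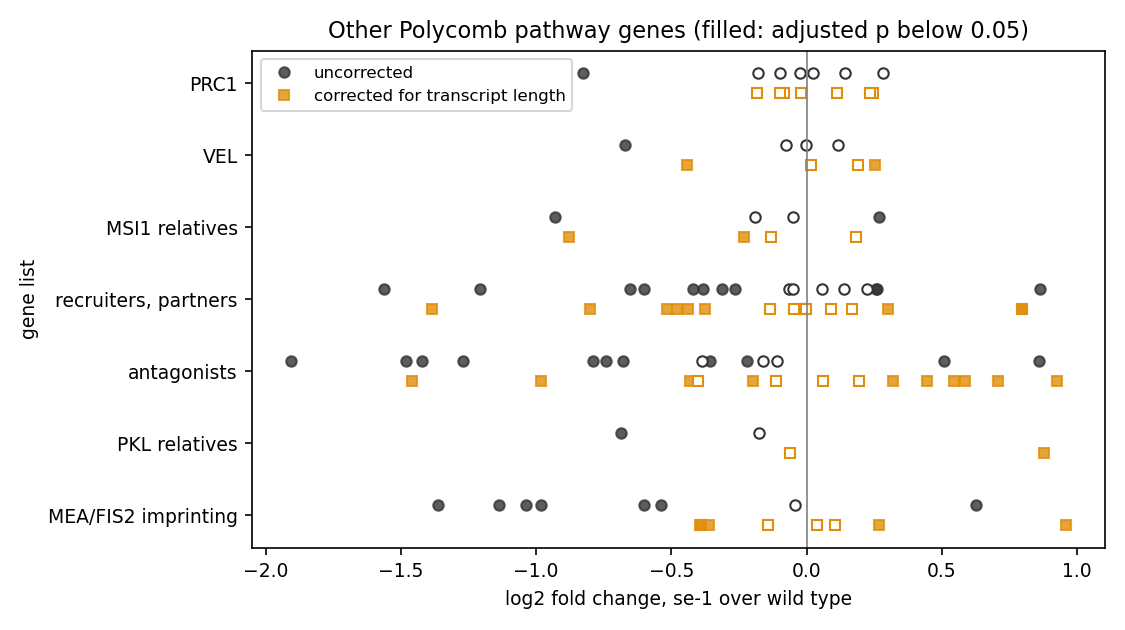
Log2 fold changes, se-1 over wild type, of 55 other Polycomb pathway genes by list, without correction (circles) and with correction for transcript length (squares), filled where the adjusted p was below 0.05. EMF1 is the only filled circle in PRC1, and several antagonists move from left of 0 to right of it with the correction.

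Of 23 tested targets of Polycomb repression, 11 rose, 4 fell and 8 did not pass, beside 36.2% higher and 36.0% lower among all rows, and the median log2 fold change was 0.36. The length-corrected fit gave 10 higher and 5 lower, beside 32.3% and 34.5% among all rows. The flowering gene FT, lower in both fits, met the minimum count only through wild type, so its call is partly fixed by the filter. PHE1, a MADS-box gene that the FIS complex represses in the seed, stood at 26.3 and 28.1 CPM in se-1, against 3.26 and 4.02 CPM in wild type. It rose 7.45-fold (log2 fold change 2.90, SE 0.13, adjusted p = 7.5e-13, edgeR; 2.43 after length correction). PHE1 has a near-identical copy, PHE2, and how reads that match both were counted is unknown, so its value is uncertain. SHP2, a carpel and ovule MADS-box gene, rose 2.78-fold to 19.4 and 21.9 CPM in se-1, against 6.47 and 8.36 CPM in wild type. KNAT2, a KNOX homeobox gene, rose 3.39-fold to 8.13 and 8.95 CPM in se-1, against 2.74 and 2.30 CPM in wild type. SHP2 is also expressed in the seed coat, and 5 of 8 seed coat markers were higher in se-1, beside 36.2% of all rows. The part of seed coat material in these levels was not tested.

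Other targets, chosen after their values were seen, show both directions. The floral gene AG rose 2.60-fold, while its relative STK fell by 1.14 on the log2 scale and the flowering gene FT had 3 and 2 counts in se-1 against 35 and 22 counts in wild type. FLC, the best-known Polycomb target of vernalization, had 24 and 17 counts in se-1 and 22 and 18 counts in wild type, a log2 fold change of -0.02 (adjusted p = 0.968, edgeR). The maturation genes LEC1, LEC2 and FUS3 did not pass, at 0.16, 0.14 and 0.19, while ABI3 rose (0.36, or 0.82 after length correction). LEC1, a short transcript, was lower after length correction (-0.43, adjusted p = 2.06e-04, edgeR). Of 27 targets, 4 (MAF4, MAF5, AGL19 and DOG1) had too few counts to be tested.

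**Figure D5:**
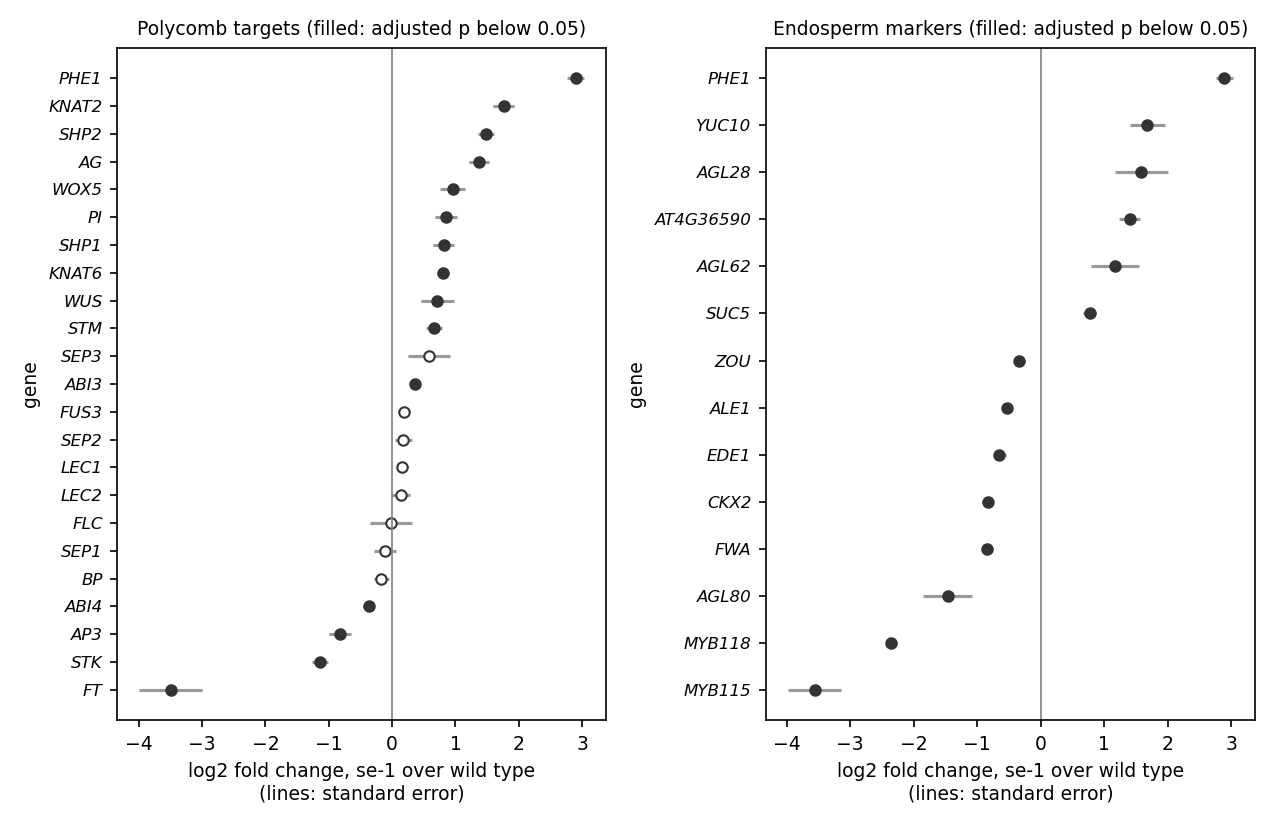
Log2 fold changes, se-1 over wild type, with standard errors, of 23 tested Polycomb targets (left) and 14 tested endosperm markers (right), filled where the adjusted p was below 0.05. PHE1, in both lists, lies highest at 2.90, while MYB118 (-2.35) and MYB115 (-3.56) are the lowest endosperm markers. MYB115, AGL80 and FT were tested only through their wild-type counts, and AGL62 and AGL28 only through their se-1 counts.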

How the data were processed

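Embryo RNA was extracted with RNAqueous-Micro, amplified with MessageAmp aRNA and made into TruSeq RNA libraries, per the labels' protocols. The authors deposited raw counts of reads per gene, with no normalization. The submitters' processing notes list HISAT2 2.0.5, featureCounts, Cufflinks 2.2.1, FastQC 0.11.5 and the TAIR10 build. Neither their roles nor the annotation release, strand setting or multi-mapping rule are given in those notes.

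Counts were tested in edgeR 4.0.16 (R 4.3.3) after filterByExpr by genotype and TMM, with the quasi-likelihood F-test on genotype, two-sided, and Benjamini-Hochberg adjustment over all 18714 rows. Adjusted p-values come from it unless another tool is named. The SE of a log2 fold change is its size over the square root of F. For length correction, a natural spline (5 degrees of freedom) of each library's log2 ratio to the mean over log2 transcript length served as an offset. The longest RefSeq TAIR10.1 transcript gave lengths, and that annotation gave symbols, positions, overlaps and, by locus identifier, the MIR862 sequence. Its translated proteins were aligned with Biopython 1.88 (BLOSUM62). The test was checked on simulated counts. Intervals cover counting error only.

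The members and gene lists were chosen with earlier results of these data known. Named genes are the members, the 3 smallest adjusted p of each other list and every gene of the imprinting list. Others are marked as chosen after their values were seen. Alternatives were DESeq2 1.42.0, limma-voom 3.58.1, other scalings and filters, a replicate block, length and GC corrections, and each library left out. Same-numbered libraries are not stated to share a batch. Replicates differed by more than counting noise (chi-square per degree of freedom 5.87 in se-1 and 4.10 in wild type), so each was used as a replicate.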

Additional observations from a re-analysis of the deposited data

How the results depend on the processing

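FIS2, CLF, FIE and LHP1 kept their direction and call under all 13 alternatives, with FIS2 between -2.65 and -2.23 on the log2 scale. The sign turned, with no call, for the PKL row, at 0.011 with length correction and 0.067 with length and GC correction, and for SWN, at 0.022 with length and GC correction. The VRN2 and MSI1 calls rest on se-1 replicate 1 and wild-type replicate 1, as given above. The replicate block called 8 members and 13683 rows in all and changed no member's call. Deviations of same-numbered libraries correlated at 0.0263 over 18714 rows. With 2 libraries per genotype this value cannot show whether same-numbered libraries shared a batch. DESeq2 called 11443 rows and 7 members. The FIS2 share of its family was lower in se-1 by 18.6 points with coding length and 23.5 points with no length scaling, against 21.3 points with transcript length. The cause of these shifts was not tested. Depth limits MEA, at 7 to 19 counts per library.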
